A study of Papio papio with 23 samples.

Results

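The genes described here are 8 immediate early genes, FOS, FOSB, JUN, JUNB, JUND, EGR1, IER2 and ATF3, in whole blood of baboons (Papio papio) before and after gamma irradiation. They were found by their gene names on a human Agilent single-colour array, where they have 11 probes among 50599 non-control probes (8 of 36337 gene names). ATF3 has 4 probes and each of the other genes has 1. All 11 probes passed the filter on dim probes, which asked for a signal well above background on at least 4 of 23 arrays. All animals were adult males, with an average age of 8.1 ± 3.3 years by the labels. Group H0 was blood of 5 healthy baboons drawn before exposure. Group H1-2 was blood of 4 baboons with low to medium HARS (haematological acute radiation syndrome, in which blood cell counts fall after exposure), and H2-3 was blood of 5 baboons with medium to severe HARS, each taken 1 and 2 days after exposure. The irradiated animals were anaesthetised and received cobalt-60 gamma rays to the whole or a part of the body, at an equivalent whole-body dose of 2.5 or 5 Gy. The labels do not give the dose or the field of a single animal, and do not say whether the H0 animals were among those irradiated later. Blood went into RNA-stabilising tubes that stood at room temperature overnight before freezing.

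Immediate early genes are transcribed within minutes of a stimulus, without new protein synthesis, when MAP kinases activate factors such as SRF and its ELK partners, CREB and JUN that already sit at their promoters. FOS and FOSB proteins pair with JUN, JUNB or JUND to form AP-1, a leucine zipper factor, and ATF3 is a stress-induced leucine zipper factor of the same superfamily. EGR1 is a zinc finger factor, and IER2 is a short-lived nuclear protein. In blood these transcripts are known to be abundant in neutrophils and monocytes and to respond to stress, cytokines and handling.

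The probes were designed on human transcripts, and 4 of the 11 are printed because they can be read through in at least 1 frame and bear on results below: the JUNB probe, the JUND probe, and 2 ATF3 probes that did not behave alike. They are given 5′ to 3′ in the sense of the transcript, all 60 bases long, with positions on the human build hg19 from the deposited files. The JUNB probe lies at chr19:12902998-12903057 on the plus strand, the JUND probe at chr19:18391371-18391430 on the minus strand, and the ATF3 probes at chr1:212788502-212788561 and chr1:212792837-212792896 on the plus strand.
JUNB A_24_P241815: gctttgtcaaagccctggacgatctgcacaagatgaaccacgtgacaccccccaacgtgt
JUND A_33_P3324909: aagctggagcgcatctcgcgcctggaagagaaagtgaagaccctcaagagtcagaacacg
ATF3 A_33_P3214105: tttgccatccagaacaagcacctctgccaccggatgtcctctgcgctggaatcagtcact
ATF3 A_24_P33895: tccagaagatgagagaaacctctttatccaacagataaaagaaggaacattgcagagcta
No pair of the 11 probes shared a run of more than 13 identical bases, and the best ungapped match of a pair covered 16 to 26 of 60 bases. No genome or annotation was used here, so exons, and differences between the baboon transcript and the probe, were not assigned.

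Levels are log2 signals minus the 75th percentile of the array, so 0 is the level that 75% of probes on that array stay below. A level is compared between groups for the same probe only. Differences are log2 differences ± standard error from 1 limma fit over 21130 genes, with p-values adjusted by Benjamini-Hochberg over all of them and a threshold of 0.05. On single arrays 41.4 to 51.3% of probes were well above background, and no member probe was saturated. The tested markers of whole blood were present. Each tested neutrophil, monocyte, T cell, NK cell, platelet and erythroid marker was well above background on at least 1 array of every group. In the B cell list CD22 was at background on all H2-3 day 1 arrays. Some listed markers could not be tested, among them GP6 of the platelet list. The array of H0 baboon 1 stood apart. Its levels of FOS, FOSB, JUN, JUNB and JUND, and of ATF3 by the brightest probe alone, were the lowest in H0. Its means of the neutrophil (2.11) and monocyte (4.32) markers were the lowest of all 23 arrays. Every difference of the 8 genes from H0 that passed is therefore also given without it.

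In animals with medium to severe HARS, 4 of 8 genes had risen on day 1 (FOS, FOSB, JUNB and ATF3) and 3 on day 2 (FOS, FOSB and ATF3), by 2.40- to 4.52-fold against H0. The upper end is the dim FOSB probe on day 2, whose size depended on the background correction. The lower end is ATF3 on day 1 by its brightest probe. The ATF3 calls held for 1 of its 4 probes on day 1 and for 2 of 4 on day 2. None of the 8 genes was called lower. On day 1, 15.0% of all tested genes were called higher and 28.4% were called in either direction. On day 2 the shares were 10.3% and 14.8%, and the 14.8% became 3.92% without H2-3 baboon 4, 6.97% without H2-3 baboon 5 and 5.07% without H0 baboon 1. In animals with low to medium HARS none of the 8 passed on either day. EGR1, IER2, JUN and JUND passed in none of these 4 comparisons.

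**Figure D1:**
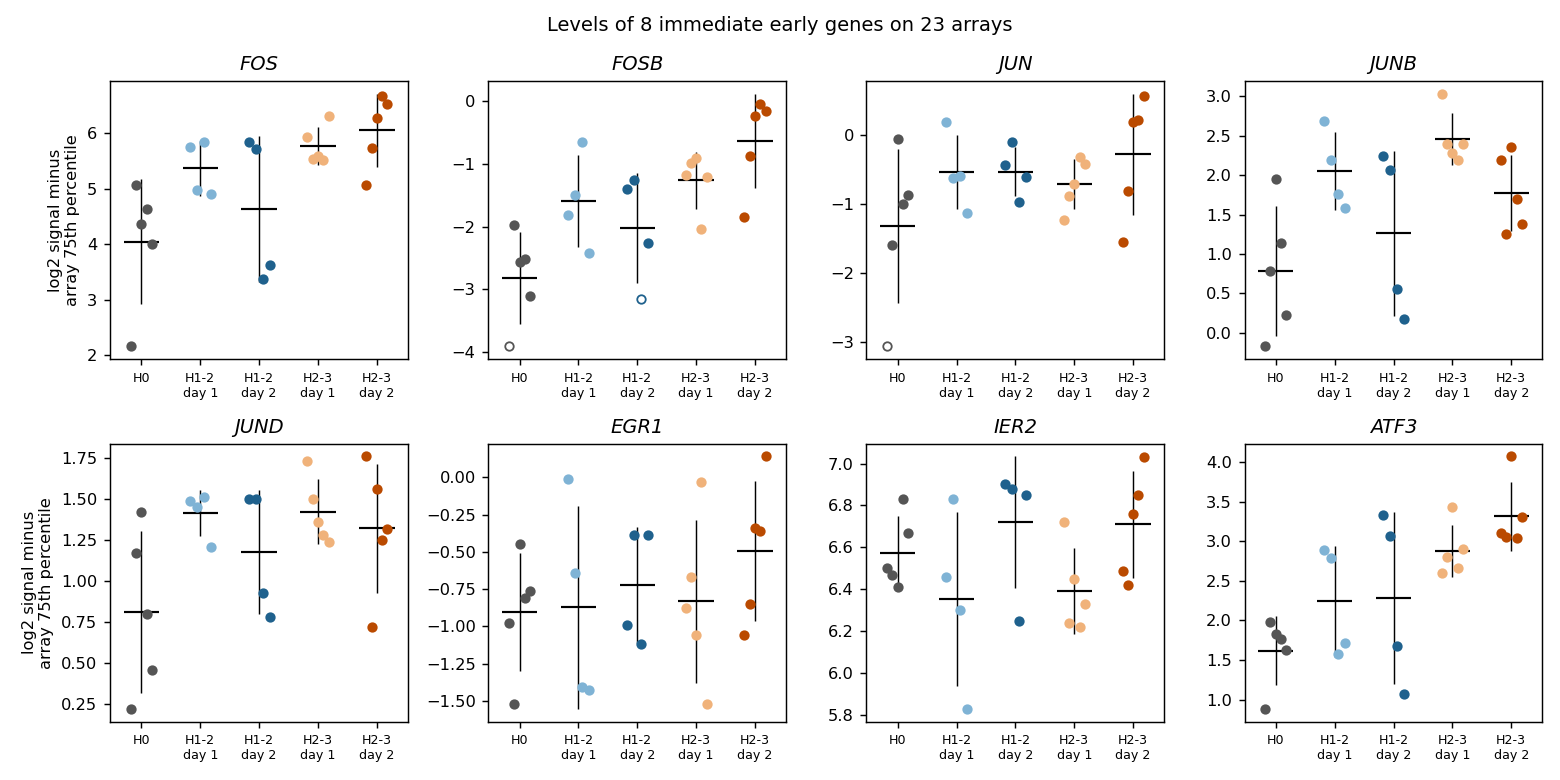
Level of each gene (log2 signal minus the array's 75th percentile, y axis, own scale per gene) on every array, by group (x axis); horizontal lines are group means, vertical lines ± 1 SD, and open points were not well above background. FOS in H0 spans 2.16 to 5.07 and lies below every H2-3 day 1 array (5.52 to 6.30), while IER2 stays between 5.83 and 7.03 on all arrays.

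FOS, the founding partner of JUN in AP-1 (probe at chr14:75748214-75748273, plus strand), was at 2.16, 5.07, 4.37, 4.63 and 4.01 in H0 baboons 1 to 5. On day 1 it was at 5.93, 5.53, 5.58, 5.52 and 6.30 in H2-3 baboons 1 to 5, each above every H0 array. The means were 5.77 ± 0.34 (SD, n = 5) and 4.05 ± 1.13 (SD, n = 5), a difference of 1.72 ± 0.50 (3.30-fold, limma adjusted p = 0.0135). On day 2 FOS was at 5.06, 5.73, 6.27, 6.67 and 6.52 in the same animals, and 4 of 5 arrays lay above every H0 array. The day 2 difference was 2.00 ± 0.50 (4.00-fold, limma adjusted p = 0.0155). Without H0 baboon 1 the FOS differences were 1.25 on day 1 (adjusted p = 0.0463) and 1.53 on day 2, which then missed the threshold (adjusted p = 0.0507).

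FOSB, a close paralogue of FOS (probe at chr19:45978205-45978264, plus strand), was dim, at -3.91, -1.97, -2.56, -2.52 and -3.11 in H0, the first of these not well above background. In H2-3 it was at -1.18, -0.98, -0.91, -2.04 and -1.21 on day 1, with 4 of 5 arrays above every H0 array. On day 2 it was at -1.85, -0.87, -0.24, -0.05 and -0.16, with no overlap with H0. The differences were 1.55 ± 0.42 on day 1 (2.93-fold, limma adjusted p = 0.00889) and 2.18 ± 0.42 on day 2 (4.52-fold, limma adjusted p = 0.00771). Without H0 baboon 1 they were 1.27 and 1.90 (adjusted p = 0.0322 and 0.0277). FOSB thus passed with and without the array that stood apart. The size of its differences depended on how the background of this dim probe was corrected. With normexp background correction they were 0.49 and 0.79 (limma adjusted p = 0.0316 and 0.00541), while FOS was at 1.68 and 2.00.

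JUN, the founding member of the JUN family (probe at chr1:59246511-59246570, minus strand), was at -3.06, -1.59, -0.06, -1.0 and -0.87 in H0, the first not well above background. In H2-3 it was at -1.23 to -0.32 on day 1 and at -1.55, -0.82, 0.18, 0.22 and 0.56 on day 2. The groups overlapped on both days, and the differences of 0.61 ± 0.44 and 1.03 ± 0.44 did not pass (limma adjusted p = 0.33 and 0.101). With scan day as a term the day 1 difference was -0.07. The day 2 difference passed without H0 baboon 3 (1.35, adjusted p = 0.034) or without H2-3 baboon 1 (1.35, adjusted p = 0.0338).

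JUNB, a JUN relative that can dampen JUN activity and is prominent in myeloid cells, was at -0.17, 0.79, 1.95, 1.14 and 0.23 in H0. On day 1 in H2-3 it was at 3.03, 2.39, 2.28, 2.19 and 2.39, each above every H0 array. The difference was 1.67 ± 0.40 (3.19-fold, limma adjusted p = 0.00359), and 1.43 without H0 baboon 1 (adjusted p = 0.0138). On day 2 JUNB was at 2.19, 1.25, 2.35, 1.70 and 1.38, and 2 of 5 arrays lay above every H0 array. The day 2 difference was 0.99 ± 0.40 and missed the threshold (limma adjusted p = 0.0878). It passed without H0 baboon 3, the H0 array with the highest JUNB level (1.28, adjusted p = 0.0278).

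JUND, the JUN family member that is usually expressed without a stimulus, was at 0.22, 1.17, 1.42, 0.80 and 0.46 in H0 and at 1.73, 1.5, 1.36, 1.28 and 1.24 on day 1 in H2-3. The difference of 0.61 ± 0.23 just missed the threshold (limma adjusted p = 0.0515). It passed without H0 baboon 2 (0.69, adjusted p = 0.0394) or 3 (0.76, adjusted p = 0.015). It also passed with the filter at 12 arrays (adjusted p = 0.0464) or with the mean of a gene's probes (adjusted p = 0.049). On day 2 the difference was 0.51 ± 0.23 (adjusted p = 0.119), and it passed without H0 baboon 3 (0.66, adjusted p = 0.0482).

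EGR1 (probe at chr5:137804891-137804950, plus strand) and IER2 (probe at chr19:13265586-13265645, plus strand) did not pass on either day, and their levels overlapped those of H0. EGR1 was at -1.52 to -0.45 in H0, -1.52 to -0.03 on day 1 in H2-3 and -1.06 to 0.14 on day 2. Its differences were 0.07 ± 0.31 and 0.41 ± 0.31 (limma adjusted p = 0.892 and 0.345). IER2 was at 6.41 to 6.83 in H0, 6.22 to 6.72 on day 1 and 6.42 to 7.03 on day 2, with differences of -0.18 ± 0.19 and 0.14 ± 0.19 (adjusted p = 0.522 and 0.629). The signs of both genes depended on the scaling. With the percentile taken over probes detected on all arrays, EGR1 was at -0.11 on day 1 and IER2 at -0.02 on day 2.

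ATF3, the stress-induced leucine zipper factor, was measured here by its brightest probe (chr1:212793856-212793915, plus strand). It was at 0.88, 1.98, 1.83, 1.77 and 1.63 in H0. In H2-3 it was at 2.60, 2.80, 3.43, 2.66 and 2.90 on day 1 and at 3.1, 3.05, 4.07, 3.04 and 3.31 on day 2, and on both days each array lay above every H0 array. The differences were 1.26 ± 0.37 (2.40-fold, limma adjusted p = 0.0146) and 1.70 ± 0.37 (3.24-fold, limma adjusted p = 0.00918). Without H0 baboon 1 they were 1.08 and 1.51 (adjusted p = 0.046 and 0.035). On day 1, FOS, JUNB and ATF3 were the 3 of 8 genes whose H2-3 and H0 arrays did not overlap, against 9.57% of all tested genes higher without overlap. On day 2 they were FOSB and ATF3, 2 of 8, against 5.66%.

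The layout of the arrays bears on these differences. The day 1 arrays were scanned on the same day as H0 baboons 3 to 5, and 1 slide held 1 H0 and 1 H2-3 day 1 array. With scan day as a term, FOSB and JUNB still passed on day 1 (1.47 and 1.35, limma adjusted p = 0.0417 and 0.0376), while FOS and ATF3 did not (1.43 and 1.13, adjusted p = 0.0819 and 0.0689). With slide as a term, which rests on the difference of those 2 arrays, JUNB alone of the 8 passed (2.81, adjusted p = 0.0273). FOS was then at 1.92, FOSB at 1.93 and ATF3 at 0.97 (adjusted p = 0.362, 0.281 and 0.435). All day 2 arrays were on 2 slides and a scan day of their own, so day 2 against H0 cannot be told apart from slide or scan day.

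**Figure D2:**
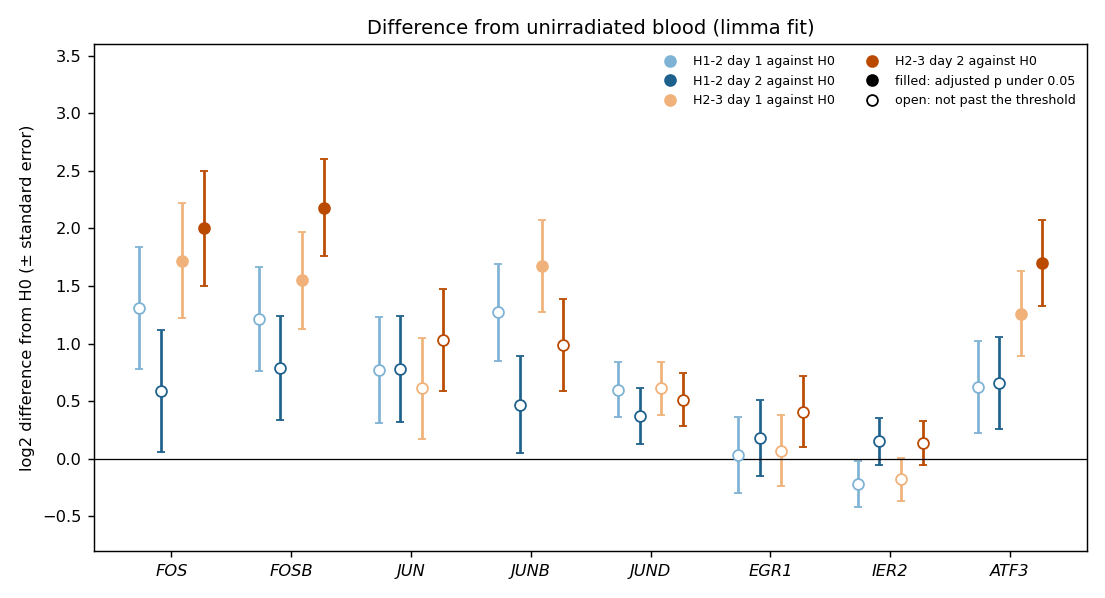
Log2 difference from H0 (y axis) of each gene (x axis) in the 4 comparisons of irradiated with unirradiated blood; points are limma estimates, bars ± 1 standard error, and filled points have an adjusted p under 0.05. Filled points occur in H2-3 alone, for FOS, FOSB, JUNB and ATF3 on day 1 and FOS, FOSB and ATF3 on day 2.

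The 4 ATF3 probes did not give 1 answer. Counted from the most upstream probe, they start at 0, 4017, 4335 and 5354 bases on the plus strand of chromosome 1. On day 2 in H2-3 the 2 downstream probes rose, by 1.61 ± 0.41 and 1.70 ± 0.37 (limma over all kept probes, adjusted p = 0.0159 and 0.00925). The most upstream probe was at 0.62 ± 0.27 (adjusted p = 0.116), and the probe at 4017 bases, A_33_P3214096, was at -0.27 ± 0.20 (adjusted p = 0.346). On day 1 only the brightest probe passed, with the others at 0.49, 0.21 and 0.95 from upstream to downstream (adjusted p = 0.191, 0.472 and 0.0854). The ATF3 probe at 4335 bases, printed above, was well above background on 17 of 23 arrays, 3 of 5 in H0, and at -3.19 to -2.0 there against -1.73 to -0.59 on day 2 in H2-3. With the mean of its 4 probes ATF3 was at 0.73 on day 1 and 0.91 on day 2 (adjusted p = 0.0344 and 0.0232). The day 2 call thus holds for 2 of 4 probes and the day 1 call for 1 of 4, and which transcripts each probe detects was not assigned.

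**Figure D3:**
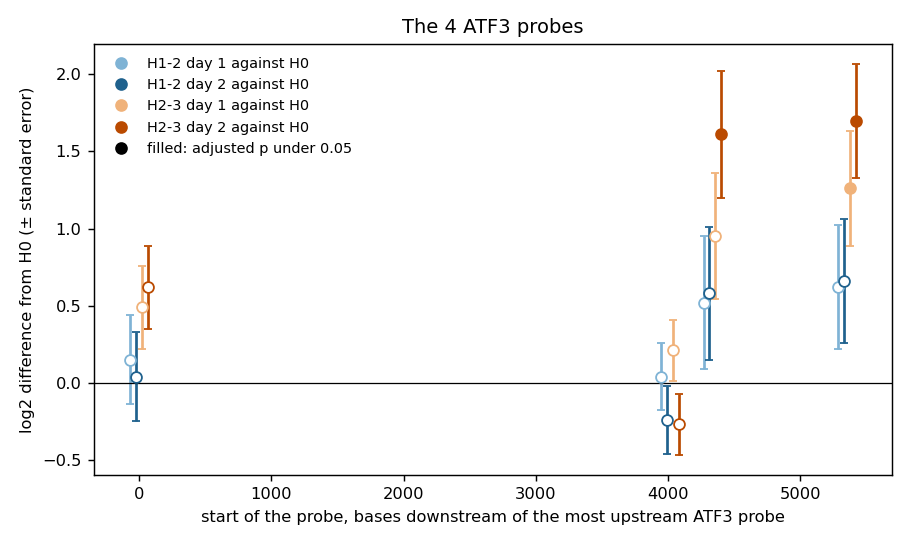
Log2 difference from H0 (y axis, ± 1 standard error) of the 4 ATF3 probes against the start of each probe in bases downstream of the first (x axis; points of the 4 comparisons are shifted sideways for legibility); filled points have an adjusted p under 0.05. The probe at 4017 bases lies near 0 in all 4 comparisons, between -0.27 and 0.21, while the probe at 5354 bases reaches 1.70.

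In animals with low to medium HARS, limma called 0 of 8 genes on day 1, against 8.59% of all tested genes, and 4 of 8 members and 5663 of 21130 genes (26.8%) had an unadjusted p under 0.05. That share of all tested genes rests on single arrays: its 1816 calls were 4 without H1-2 baboon 1, 402 without H1-2 baboon 2, 891 without H1-2 baboon 4, and 497, 3105, 817 and 543 without H0 baboons 1, 3, 4 and 5. With only the groups compared in the fit there were 211. FOS was at 5.74, 4.97, 5.83 and 4.91, with 2 of 4 arrays above every H0 array. FOSB was at -1.82, -1.5, -0.66 and -2.42, and JUNB at 2.69, 2.19, 1.76 and 1.58. The differences were 1.31 ± 0.53 for FOS, 1.21 ± 0.45 for FOSB, 1.27 ± 0.42 for JUNB and 0.60 ± 0.24 for JUND (limma adjusted p = 0.117, 0.0876, 0.062 and 0.115). JUN, ATF3, EGR1 and IER2 were at 0.77, 0.62, 0.03 and -0.22 (adjusted p = 0.299, 0.329, 0.965 and 0.53). JUNB passed when arrays were weighted by quality (1.21, adjusted p = 0.0421), and without H0 baboon 3 both JUNB (1.56, adjusted p = 0.0163) and JUND (0.75, adjusted p = 0.0396) passed. The median of the 8 differences was 0.70, beside a median of 0.09 over all tested genes.

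On day 2 in the same animals limma called 0 of 8 genes, against 0.0% of all tested genes, and 0 of 8 members and 2228 genes (10.5%) had an unadjusted p under 0.05. The array weights, the replicate block and every other alternative tried also gave 0 members. The levels split the animals. FOS was at 5.84, 5.71, 3.38 and 3.62 in baboons 1 to 4, JUNB at 2.24, 2.06, 0.56 and 0.18, and ATF3 at 3.33, 3.06, 1.68 and 1.07. Baboons 1 and 2 lay above every H0 array for these 3 genes and baboons 3 and 4 lay inside the H0 range. JUND had the same order, at 1.5, 1.5, 0.93 and 0.78. The mean of the monocyte markers was 6.19, 5.96, 5.13 and 4.96 in the same 4 samples, that of the neutrophil markers 4.37, 4.76, 3.82 and 3.18, and that of the B cell markers 0.51, 1.15, 3.46 and 3.56. Baboons 1 and 2 were on another slide than baboons 3 and 4. The part of these markers and of the slide in the split was not tested.

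The categories were also compared with each other on the same day, which asks whether the genes track the severity of the syndrome. limma called 0 of 8 genes and 0.0% of all tested genes on either day. On day 1 no member and 1224 genes (5.79%) had an unadjusted p under 0.05, and the differences lay between -0.17 ± 0.46 for JUN and 0.64 ± 0.40 for ATF3 (adjusted p = 1 for all 8). On day 2 FOS, FOSB and ATF3 were higher in H2-3 by 1.41 ± 0.53, 1.38 ± 0.45 and 1.03 ± 0.40, with unadjusted p under 0.05 but limma adjusted p = 0.508 for each, and 2062 genes (9.76%) had an unadjusted p under 0.05. Both slides with day 2 arrays held both categories, and the difference was not alike on them. FOS was at -0.09 on the slide with H1-2 baboons 1 and 2 and at 3.09 on the slide with H1-2 baboons 3 and 4. FOSB was at 0.34 and 2.60, ATF3 at 0.21 and 1.80 and JUNB at -0.22 and 1.17 on these slides. On the day 1 slides FOS was at 0.20 and 0.54 and ATF3 at 0.27 and 1.14, while FOSB was at 0.72 and -0.08 and JUNB at -0.10 and 0.62, with a sign that turned between the slides. A gene that passed in H2-3 and not in H1-2 was thus not shown to differ between the categories.

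From day 1 to day 2, limma called 0 of 8 genes in H1-2 (0.0% of all tested genes; 0 members and 4957 genes, 23.5%, at an unadjusted p under 0.05). It called 0 of 8 in H2-3 (2.97% of all tested genes; 0 members and 5621 genes, 26.6%, at an unadjusted p under 0.05). A difference of this change between the categories was not called for any member or any other gene (0.0%; 0 members and 421 genes, 1.99%, at an unadjusted p under 0.05). The largest of the members were 1.05 ± 0.63 for FOSB and 1.00 ± 0.75 for FOS (limma unadjusted p = 0.113 and 0.198). The changes were thus not shown to differ, and not shown to be alike. Taken by animal, ATF3 by its brightest probe was higher on day 2 in 5 of 5 H2-3 baboons, by 0.26 to 0.64. The fitted change of that probe was 0.44 ± 0.37 (limma adjusted p = 0.489). ATF3 probe A_33_P3214096 went the other way, at -0.48 ± 0.20 (limma over all kept probes, unadjusted p = 0.0265, adjusted p = 0.143). Probes A_24_P33895 and A_33_P3214105 were at 0.66 and 0.13. JUNB was lower on day 2 in 4 of 4 H1-2 baboons, with changes of -1.39 to -0.13, and in 4 of 5 H2-3 baboons, where the fifth gave 0.07. The fitted JUNB changes were -0.79 ± 0.45 and -0.68 ± 0.40 (adjusted p = 0.267 and 0.281). These fitted values have no term for the baboon and so ignore the pairing. With the baboon as a fixed block the same changes also did not pass. The limma adjusted p was then 0.104 for ATF3 in H2-3, and 0.143 and 0.0951 for JUNB in H1-2 and H2-3. FOS moved by 0.10, 0.74, -2.45 and -1.29 in H1-2 baboons 1 to 4 and by -0.87, 0.20, 0.69, 1.15 and 0.21 in H2-3 baboons 1 to 5. FOSB moved by -2.49 in H1-2 baboon 3, to a level not well above background, and by 1.99 in H2-3 baboon 4. Day and scan day cannot be told apart in these changes.

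**Figure D4:**
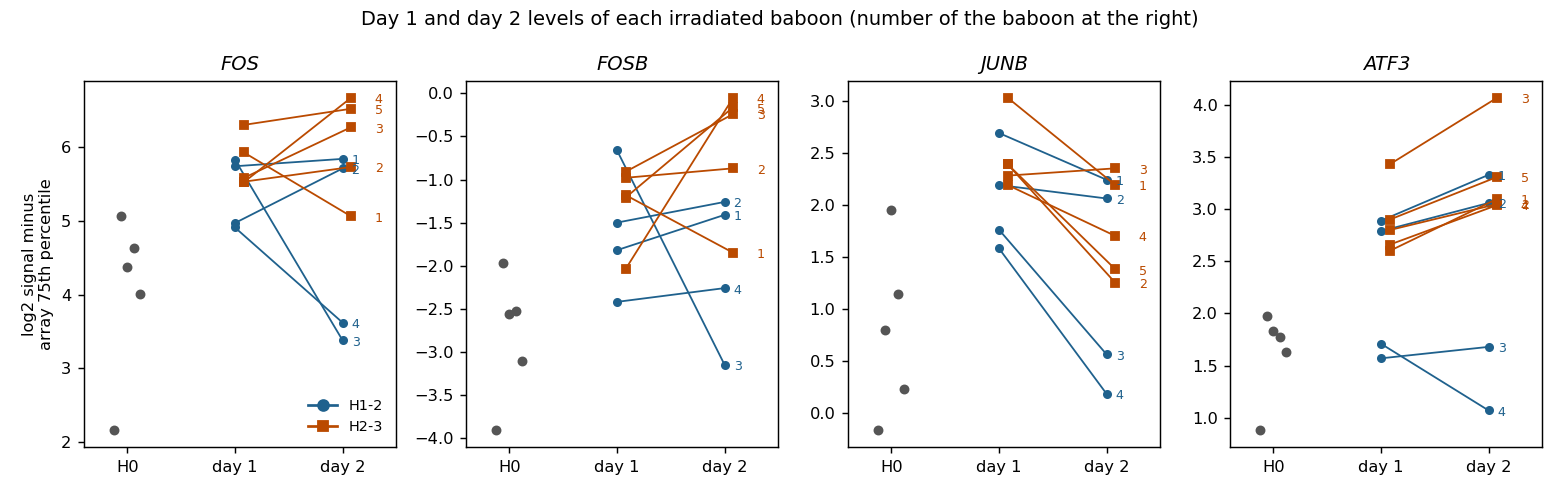
Levels (log2 signal minus the array's 75th percentile, y axis) of FOS, FOSB, JUNB and ATF3 in H0 (grey points) and on day 1 and day 2 (x axis) of each irradiated baboon; lines join the 2 samples of an animal, and numbers name the animals. JUNB lines go down in 8 of 9 animals, and all 5 ATF3 lines of H2-3, drawn from its brightest probe, go up.

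How alike the genes varied over the 23 arrays is given as a description without a test. These arrays share 9 animals sampled on both days, slides and group differences. FOS and FOSB had a Pearson r of 0.91 (0.83 after the group means were removed), and JUNB and JUND one of 0.88 (0.86). FOS and ATF3 were at 0.80 (0.65), FOSB and ATF3 at 0.77 (0.49), FOS and JUNB at 0.74 (0.63) and JUNB and ATF3 at 0.72 (0.75). The 15 pairs among FOS, FOSB, JUN, JUNB, JUND and ATF3 had r between 0.46 and 0.91. The 13 pairs with EGR1 or IER2 had r between -0.04 and 0.60, the highest for JUN and EGR1. The place of JUN among the first 6 genes rested on H0 baboon 1. Without that array JUN was at 0.15 with JUND (from 0.47), 0.22 with JUNB (from 0.46), 0.41 with ATF3 (from 0.56) and 0.47 with FOS (from 0.68), and at 0.73 with EGR1. FOS and FOSB were then at 0.89 and JUNB and JUND at 0.85.

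The genes with the most similar levels over the 23 arrays were taken from 14028 tested genes with a symbol. For FOS they were ZDHHC18 and NCSTN (r = 0.92 for both), and for FOSB they were FOS (0.91) and HMGB3 (0.87). JUN was closest to RAD21 (0.91) and CREM (0.90), and JUNB to KDM6B (0.96) and CMIP (0.93). JUND was closest to NOTCH2NL and JUNB (0.88 for both), and ATF3 to TRPC6 (0.89) and TNFAIP2 (0.88). IER2 was closest to SHARPIN (0.89) and ERP27 (0.82). EGR1 had the least similar neighbours of the 8, GTF2H2D and SIK3 (0.72 for both). Without H0 baboon 1, JUNB kept r = 0.96 with KDM6B, a histone demethylase, and IER2 kept 0.89 with SHARPIN. JUN was then at 0.84 with RAD21 and 0.81 with CREM, and FOS at 0.87 with ZDHHC18. JUND was at 0.83 with NOTCH2NL, while EGR1 rose to 0.78 with GTF2H2D.

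Markers of blood cells moved with the same groups. In whole blood, a larger share of a cell type and more RNA of a gene per cell cannot be told apart. The array mean of 13 tested neutrophil markers (of 14 listed; FCGR3B was not tested) was 2.11 to 5.13 in H0, 5.07 to 5.79 and 3.18 to 4.76 in H1-2 on days 1 and 2, and 5.39 to 6.08 and 4.31 to 5.44 in H2-3. That of 9 monocyte markers (of 10; LYZ was not tested) was 4.32 to 5.43 in H0, 5.51 to 6.19 and 4.96 to 6.19 in H1-2, and 6.0 to 6.71 and 5.81 to 6.26 in H2-3. None of these markers was at background throughout a group. The mean of 12 T cell markers was 2.84 to 3.69 in H0 and 0.32 to 2.35 on day 1 in H2-3, and that of 8 B cell markers (of 10; MS4A1 and PAX5 were not tested) was 2.23 to 3.40 and -1.26 to 0.80. JUNB levels correlated with the monocyte mean at r = 0.88 and with the neutrophil mean at 0.85 over 23 arrays, and FOS at 0.82 and 0.77. After the group means were removed these were 0.80, 0.68, 0.70 and 0.67. ATF3 was at 0.80 and 0.57, and at 0.74 and 0.42 after the group means were removed. FOSB was at 0.74 and 0.63, and then at 0.52 and 0.42. EGR1 was at 0.16 and 0.12. The part of the cell mix in the rise of FOS, FOSB, JUNB and ATF3 was not tested.

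**Figure D5:**
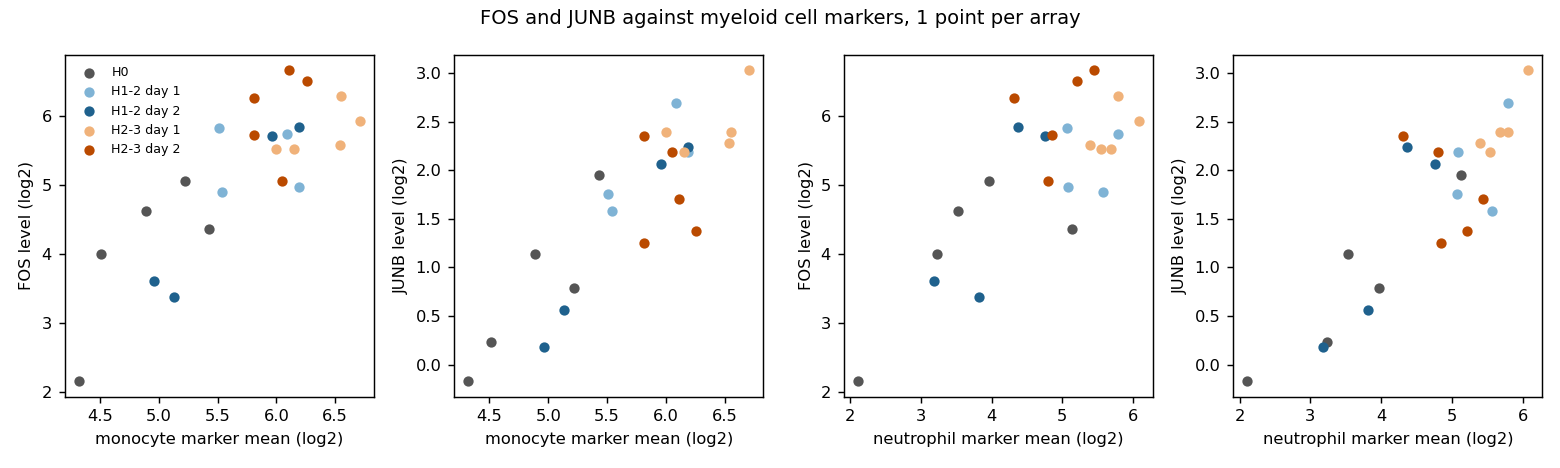
FOS and JUNB levels (y axes, log2 signal minus the array's 75th percentile) against the mean level of 9 monocyte or 13 neutrophil markers (x axes, same unit), 1 point per array, coloured by group. JUNB and the monocyte mean have r = 0.88 over the 23 arrays, and H0 baboon 1 is the lowest point in each panel.

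Genes of the same pathway were followed in 6 lists, which are read beside the share of all tested genes. On day 1 in H1-2, 4.18% of all genes were called higher and 4.42% lower, shares that rest on single arrays as given above. In H2-3 these shares were 15.0 and 13.5% on day 1 and 10.3 and 4.48% on day 2. Of 20 other AP-1 and CREB family leucine zipper genes, all tested, 6 rose and 1 fell on day 1 in H2-3, with a median of 0.51 beside 0.14 over all tested genes. On day 2, 5 rose and 1 fell, with a median of 0.59 beside -0.03. ATF6, an activator of the unfolded protein response, rose on day 1 in both categories (1.01 ± 0.25 in H1-2 and 1.35 ± 0.24 in H2-3, limma adjusted p = 0.0221 and 0.000417). The ATF6 call in H1-2 was lost without H0 baboon 1 or 5 or without H1-2 baboon 1, 2 or 4 (highest adjusted p = 0.107). MAF, a leucine zipper factor of T cells and macrophages, fell by 1.16 ± 0.22 in H1-2 and by 1.37 ± 0.21 in H2-3 on day 1 (limma adjusted p = 0.0141 and 0.00014), to 0.59 to 1.27 in H2-3 from 1.96 to 2.78 in H0. Without H1-2 baboon 1 the MAF call in H1-2 was lost (adjusted p = 0.0629). The T cell markers named above were lower in the same samples, and their part in the MAF level was not tested.

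Of 18 other immediate early transcription factors 15 could be tested. On day 1, 2 rose in H1-2 (NFIL3 and IER5) and 8 in H2-3, and on day 2 in H2-3, 7 rose and MYC fell. The medians in H2-3 were 0.66 and 0.81. KLF4, a zinc finger factor of monocyte differentiation, was at -0.67 to 0.58 in H0, 1.66 to 2.22 on day 1 and 0.91 to 1.83 on day 2 in H2-3, without overlap. Its differences were 2.02 ± 0.36 (4.07-fold, limma adjusted p = 0.000391) and 1.34 ± 0.36 (2.53-fold, limma adjusted p = 0.0194), the second of which missed the threshold without H0 baboon 1 (1.32, adjusted p = 0.0502). IER5, an immediate early gene related to IER2, rose by 1.03 ± 0.32 on day 1 in H1-2 (limma adjusted p = 0.0471), a call that held with 3 of 9 arrays left out in turn and was lost without H0 baboon 1, 4 or 5 or H1-2 baboon 1, 2 or 4 (highest adjusted p = 0.174). In H2-3 it rose by 1.36 ± 0.30 and 1.31 ± 0.30 on days 1 and 2 (adjusted p = 0.00212 and 0.011), whereas the IER2 differences there were -0.18 and 0.14.

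Of 28 genes listed as feedback regulators induced as early genes, 3 rose and 1 fell on day 1 in H1-2. The list holds phosphatases, RNA-decay factors and inhibitors, and also genes with other roles, among them MCL1, RHOB and PIM1. In H2-3, 11 rose and 2 fell on day 1 (median 0.56), and 7 rose and none fell on day 2 (median 0.51). DUSP1, a MAP kinase phosphatase, ZFP36, which promotes decay of AU-rich messages, and BTG2, an antiproliferative gene, were called higher in all 3 comparisons. These genes were picked after their values were seen, and how their calls fared under the alternatives is not given here. The calls over all tested genes on day 1 in H1-2 rest on single arrays, as given above. DUSP6, the phosphatase of ERK, rose by 1.87 ± 0.37 on day 1 (3.64-fold, limma adjusted p = 0.000922) and by 1.29 ± 0.37 on day 2 in H2-3 (2.45-fold, limma adjusted p = 0.0261). The day 2 call of DUSP6 was lost without H0 baboon 1 or H2-3 baboon 4 or 5 (adjusted p = 0.085, 0.079 and 0.0635). GADD45A, a stress sensor induced by DNA damage, rose by 1.21 ± 0.24 on day 1 (limma adjusted p = 0.0011), was at 0.28 on day 2 (adjusted p = 0.415), and was the member of these 6 lists that changed from day 1 to day 2 in H2-3 (-0.92 ± 0.24, adjusted p = 0.0454). That change held with 2 of 10 arrays left out in turn, H2-3 baboon 2 on day 1 and baboon 1 on day 2. Leaving out each of the other 8 gave -1.04 to -0.73 (highest adjusted p = 0.125), and with the baboon as a fixed block it missed (adjusted p = 0.0772). The 628 calls of this comparison numbered 22 without H2-3 baboon 5, 90 without baboon 3, 139 without baboon 4 and 189 without baboon 2 on day 2, and 3734 without baboon 1. Without an array of day 1 they numbered 286, 290, 83 and 140 for baboons 1, 3, 4 and 5.

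Upstream of the early genes, of 32 MAP kinase pathway genes 5 rose on day 1 in H1-2, 13 rose and MAPK9 fell on day 1 in H2-3, and 7 rose on day 2 in H2-3. MAPK14, which encodes p38 alpha, rose by 1.36 ± 0.33 and 1.36 ± 0.31 on day 1 in H1-2 and H2-3 (limma adjusted p = 0.0209 and 0.00296). In H1-2 it missed without H0 baboon 1 or 5 or H1-2 baboon 1 (highest adjusted p = 0.0954). MKNK1, a kinase downstream of ERK and p38, rose by 1.64 ± 0.31 on day 1 and 1.26 ± 0.31 on day 2 in H2-3 (limma adjusted p = 0.000675 and 0.0145), and on day 2 missed without H0 baboon 1 or H2-3 baboon 4 (adjusted p = 0.0501 for both). On day 1 in H1-2 MKNK1 rose by 1.11 ± 0.33 (limma adjusted p = 0.0411). That call held with 3 of 9 arrays left out in turn. It was lost without H0 baboon 1, 4 or 5 or H1-2 baboon 1, 2 or 4 (highest adjusted p = 0.144). Of 7 SRF and ternary complex factors, MKL1, a cofactor of SRF, rose (0.83 ± 0.20, adjusted p = 0.0044) and ELK4 fell (-0.68 ± 0.24, adjusted p = 0.034) on day 1 in H2-3. ELK4 missed without H0 baboon 1 (-0.49, adjusted p = 0.109) or H2-3 baboon 2, 3 or 5. On day 2 they were at 0.59 and -0.50 (adjusted p = 0.0538 and 0.135). Of 15 tested early secreted and effector targets (of 18 listed), 8 rose and 1 fell on day 1 in H2-3 (median 0.97), and 4 rose on day 2 (median 0.92). PTGS2, IL1B and IL8 were among those that rose on day 1. The gene that fell was CD69, an early activation antigen of lymphocytes (-2.75 ± 0.57, limma adjusted p = 0.00134), well above background on 4 of the 5 H2-3 day 1 arrays. The T and B cell markers given above were lower in the same samples, and their part in the CD69 level was not tested. The chemokine gene CCL3 was at -0.34 and 0.58 on days 1 and 2 (adjusted p = 0.449 and 0.175). On day 2 in H1-2 no gene of the 6 lists was among the calls, since limma called 0 of 21130 genes there. With scan day as a term, the day 1 calls of ATF6, MAF, IER5, MKNK1 and MAPK14 in H1-2 were lost (limma adjusted p = 0.126, 0.0572, 0.165, 0.124 and 0.125). ELK4 in H2-3 was lost too (adjusted p = 0.184). With slide as a term these calls also missed. So did ATF6, IER5, DUSP6, MKL1, MKNK1, MAPK14 and CD69 on day 1 in H2-3, at 1.37, 1.38, 2.0, 1.12, 2.35, 1.92 and -4.34. MAF, KLF4 and GADD45A in H2-3 passed in both fits.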

How the data were processed

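The submitters' processing notes name Agilent Feature Extraction, version 10.7.3.1. Per the file headers, it gave each spot an intensity on a linear scale after background subtraction, and other flags, among them well above background. A deposited table of log2 values for these arrays (column medians 4.703), whose normalisation no label states, served as an alternative. Here log2 intensity was taken, outlier spots were left out, spots of a probe were averaged, and the 75th percentile of each array over non-control probes was subtracted. Probes well above background on at least 4 of 23 arrays were kept (27215), and the probe with the highest mean stood for its gene, which gave 21130 genes. limma 3.58.1 in R 4.3.3 (statmod 1.5.0 and data.table, version 1.17.8) fitted 5 group means, with two-sided tests and Benjamini-Hochberg adjustment at 0.05. Tables and figures were made with Python 3.11.15 (pandas 2.3.3, numpy 2.4.6, matplotlib 3.10.9). A p-value rests on the spread among arrays within groups, pooled over the 5 groups, with both arrays of an irradiated baboon treated as independent. That spread mixes differences between animals with those between slides, scan days and samples of an animal. The number of animals limits precision.

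The members and lists were chosen with earlier results of these data known. Named were all members and every probe of each, from each pathway list the 2 genes with the smallest p in an F test of all groups, and the 2 genes most like each member. Other list genes (NFIL3, MYC, DUSP1, ZFP36, BTG2, MAPK9, PTGS2, IL1B and IL8) were chosen after their values were seen. The titles number the same irradiated baboons on both days, which pairs those samples. Deviations of a baboon's samples from the group means correlated at 0.05 to 0.44 in 9 of 9 animals, but only 4 of 9 correlated best with their own other sample (0 of 4 in H1-2, 4 of 5 in H2-3), and the estimated baboon correlation was 0.252. On data simulated for H2-3 day 1 against H0 (21130 genes, 200 changed), the fit recovered 29 of 100 genes changed by 1 on the log2 scale and 86 of 100 changed by 2, with 6 false calls. The real comparison called 6007 genes, and the adjusted p depends on how many genes change. The simulated noise was also independent between arrays, without baboon, slide or scan day. These rates therefore check the fit and do not give its recovery or false calls on the real arrays. Alternatives covered scaling, background, dim probes, probe choice, baboon, slide and scan day as blocks, array weights, the groups compared alone and each array left out.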

Additional observations from a re-analysis of the deposited data

Results flagged for a closer look

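In 40 sets of a gene's levels in a group, the gap between the farthest array and its neighbour was compared with the range of the group at Dixon's 95% limit, and 4 sets passed it. Chance passes about 1 in 20. FOSB on day 1 in H2-3 was lowest in baboon 4 at -2.04, with the other 4 at -1.21 to -0.91. That array is the one on which the FOSB groups of that comparison overlapped. JUNB on day 1 in H2-3 was highest in baboon 1 at 3.03, with the others at 2.19 to 2.39. IER2 on day 2 in H1-2 was lowest in baboon 3 at 6.25, with the others at 6.85 to 6.90. ATF3 on day 2 in H2-3 was highest in baboon 3 at 4.07, with the others at 3.04 to 3.31. Without each of these arrays in turn the FOSB, JUNB and ATF3 differences from H0 remained past the threshold.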

How the results depend on the processing

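Of 1596 values of member differences under alternatives, 1489 kept their direction and their side of the threshold. The threshold was lost in 11, gained in 11, and the sign turned in 85. Of these, 84 were differences that did not pass, and 1 was ATF3 on day 2 in H2-3, which passed with its brightest probe and was at -0.27 with probe A_33_P3214096. Members past the threshold on day 1 in H2-3 numbered 4, and 1 with slide and 2 with scan day as a block. On day 1 in H1-2 there were 0, and 1 with array weights. With each array left out in turn the counts were 0 to 2 on day 1 in H1-2, 4 to 5 on day 1 in H2-3 and 2 to 6 on day 2 in H2-3. Leaving out H0 baboon 3 gave the 2 on day 1 in H1-2 and the 6 on day 2 in H2-3. The 2 on day 2 in H2-3 came without H0 baboon 1 or without H2-3 baboon 4. Without H2-3 baboon 4 FOS missed on day 2 (1.85, limma adjusted p = 0.0551). With the baboon as a replicate block no member's call changed: on day 1 in H2-3 FOS was at 1.72, FOSB at 1.55, JUNB at 1.67 and ATF3 at 1.26. In the paired fit of day 2 against day 1 the counts of members stayed at 0.

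The sign turned as follows, and the cause was not tested. With slide as a block JUN was at -0.32, EGR1 at -0.17 and IER2 at 0.10 on day 1 in H1-2 against H0, and at -0.36, -0.12 and 0.05 in H2-3. Between categories on day 1 JUND was at -0.07 and IER2 at -0.05, and IER2 was at 0.04 in the difference of the day changes. With scan day EGR1 was at -0.20 on day 1 in H1-2, and JUN and EGR1 were at -0.07 and -0.16 in H2-3. With the percentile over detected probes EGR1 was at -0.09 and -0.11 on day 1 in H1-2 and H2-3, IER2 at -0.02 on day 2 in H2-3, and JUND, EGR1 and IER2 at -0.06, -0.03 and -0.03 between categories on day 1. With quantile normalisation IER2 was at -0.10 on day 2 in H2-3, and JUND and IER2 at -0.02 and -0.09 between categories on day 1. In the deposited table these were -0.11, -0.02 and -0.10. With normexp JUND and IER2 were at -0.01 and -0.02 between categories on day 1, and JUN and EGR1 at -0.01 and -0.03 between days in H1-2. With array weights JUND was at -0.01 between categories on day 1, JUNB and JUND at -0.06 and -0.17 on day 2, and JUNB, JUND and ATF3 at -0.40, -0.16 and -0.15 in the difference of the day changes. ATF3 probe A_33_P3214096 was at -0.24 and -0.27 on day 2 in H1-2 and H2-3 against H0, -0.03 between categories on day 2, -0.29 and -0.48 between days in H1-2 and H2-3, and -0.20 in the difference of the day changes. Between days in H1-2, ATF3 was at -0.11 with probe A_33_P3214105 and -0.07 with the mean of its probes.

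With each array left out, EGR1 was at -0.26 to 0.22 and -0.13 to 0.24 on day 1 in H1-2 and H2-3 against H0. Between categories on day 1 JUN was at -0.37 to 0.07, JUND at -0.07 to 0.05, EGR1 at -0.16 to 0.33 and IER2 at -0.14 to 0.19, and on day 2 IER2 was at -0.17 to 0.06. Between days in H1-2 JUN was at -0.19 to 0.25, EGR1 at -0.03 to 0.44 and ATF3 at -0.31 to 0.45, and in H2-3 JUND was at -0.21 to 0.05. In the difference of the day changes JUNB was at -0.25 to 0.44, EGR1 at -0.10 to 0.38, IER2 at -0.20 to 0.13 and ATF3 at -0.01 to 0.74.

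Over all tested genes, the percentile over detected probes lowered the median on day 1 in H2-3 by 0.19, from 0.14 to -0.05, and the share of calls that were higher from 52.6 to 34.8%. On day 2 in H2-3 that share went from 69.7 to 43.6%, and on day 1 in H1-2 from 48.6 to 32.4%. Calls on day 1 in H1-2 numbered 1816, and 9 with slide and 4 with scan day as a block. With slide there were 1112 of 6007 on day 1 in H2-3, and with only the groups compared 1602 of 3123 on day 2. Between days, with the baboon as a random replicate block the calls were 902 instead of 0 in H1-2 and 3406 instead of 628 in H2-3, whereas the paired fit with the baboon as a fixed replicate block gave 0 and 602. Array weights gave 2433 and 4316, and 33 instead of 0 on day 2 in H1-2 against H0. In H2-3 there were also 324 with the percentile over detected probes, 293 with normexp and 167 with only the groups compared. With 1 array left out, calls ranged over 4 to 3105 on day 1 in H1-2, 4869 to 6533 on day 1 in H2-3, and 0 to 181 and 22 to 3734 between days in H1-2 and H2-3. On day 2 in H2-3 they ranged over 3.92 to 20.8% of all tested genes. FOSB, JUN and the ATF3 probe at 4335 bases lie near background on some arrays, which limits the sizes of their differences.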

Other observations

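IER2, whose groups did not differ past the threshold, had levels that ran against the erythroid markers, with r = -0.72 over 23 arrays and -0.70 after the group means were removed. FOS was at -0.54 and -0.68 against the same 9 markers, and ATF3 at -0.59 and -0.65. The erythroid mean itself was 6.40 to 7.5 in H0, 5.80 to 7.89 on day 2 in H1-2 and 6.11 to 7.19 on day 2 in H2-3. These are correlations over arrays that share animals and slides, given without a test.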
